A study of Mus musculus with 12 samples.

Results

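Rnf224, Mettl7a1, Cmah, Elf3, Gpr160 and Sprn are 6 mouse genes that were chosen by their counts, because these were much lower in Ba/F3 cells carrying BCR-ABL1 than in cells carrying the empty vector. They are 6 of the 55471 genes in the deposited count table, and all 6 were among the 17197 genes with enough counts to be tested. The choice used the counts of the BCR-ABL1 lines beside those of the MSCV lines, so the differences of the BCR-ABL1 lines from other groups are given below as a description, with no test. The genes were also named as lost with BCR-ABL1 only, with the SFPQ-ABL1 values known. Their tests of SFPQ-ABL1 against MSCV are therefore not independent of the choice. The choice set no threshold on the size of the fall. Among the 2323 protein-coding genes called lower with BCR-ABL1, the 6 genes ranked 6 (Rnf224), 23 (Mettl7a1), 24 (Cmah), 26 (Elf3), 29 (Gpr160) and 71 (Sprn) by fold.

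Ba/F3 is a mouse pro-B cell line that dies without interleukin-3 (IL-3) unless an oncogene takes over the survival signal. BCR-ABL1 joins part of BCR to the ABL1 tyrosine kinase, and SFPQ-ABL1 joins part of the RNA-binding protein SFPQ to the same kinase. RNA was sequenced from 4 biologically independent lines with BCR-ABL1 grown without IL-3, 4 with SFPQ-ABL1 grown without IL-3 and 4 with the empty vector (MSCV, named for a murine stem cell virus vector) grown in 0.5 ng/ml IL-3. A difference between a fusion and MSCV is therefore also a difference in IL-3, and these cannot be told apart, whereas the comparison of the fusions is free of it. All lines derive from a single cell line, and whether a line was a clone is not stated in the labels.

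The 6 proteins have different roles. Cmah encodes the hydroxylase that converts the sialic acid Neu5Ac, in its CMP-bound form, to Neu5Gc, an activity lost in humans. Mettl7a1 encodes a methyltransferase-like protein of endoplasmic reticulum and lipid droplet membranes, and Elf3 a transcription factor of the ETS family known from epithelial cells. Rnf224 encodes a protein with a RING finger, a zinc-binding fold found in many ubiquitin ligases. Gpr160 encodes an orphan G protein-coupled receptor, and Sprn encodes Shadoo, a small protein of the prion family attached to the cell surface and known mainly from brain.

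The gene totals ran from 59355018 to 80616227 counts per library, and levels are given as CPM, counts scaled to a common library total with TMM factors (trimmed mean of M values), so that 1 CPM stood for 59.4 to 80.6 counts. Called means an adjusted p (Benjamini-Hochberg) under 0.05 in the quasi-likelihood test of edgeR. Of 14 markers of pro-B cells and Ba/F3, Ptprc, Il3ra, Csf2rb, Csf2rb2, Cd79a and Cd79b were present, at means of 20.5 to 1477 CPM in every group. Kit, Pax5, Ebf1, Rag1, Rag2 and Igll1 were at or under 0.0487 CPM in every group, and Vpreb1 at 0.0749 to 0.257. Of the 7 tested markers of this list 5 fell with BCR-ABL1 against MSCV, where 16.3% of all genes tested were called lower: Il3ra 1.92-fold (adjusted p = 2.14e-05), Cd79b 2.42-fold (3.48e-05), Cd79a 2.20-fold (4.76e-05), Vpreb1 2.69-fold (0.0285) and Csf2rb2 2.04-fold (0.0345). With SFPQ-ABL1 2 fell, where 0.977% of all genes were called lower, Il3ra 1.48-fold (adjusted p = 0.0115) and Cd79a 1.61-fold (0.0191). The part of these markers in the levels of the 6 genes was not tested. BCR-ABL1 line 4 and SFPQ-ABL1 line 2 differed from the other lines of their group on exons that report the fusions. BCR-ABL1 line 4 had 20.8 CPM on exon 9 of Abl1, against 9.23 to 11.8 in BCR-ABL1 lines 1 to 3, and 3.60 on exon 9 of Sfpq, against 1.53 to 1.98. SFPQ-ABL1 line 2 had 4.36 CPM on exon 9 of Abl1, where the other SFPQ-ABL1 lines had 17.8 to 26.8.

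For all 6 genes every BCR-ABL1 line lay below every MSCV line and every SFPQ-ABL1 line. Over all genes tested, the lines did not overlap and were lower with BCR-ABL1 than with MSCV for 16% of genes, and were higher with SFPQ-ABL1 than with BCR-ABL1 for 13.9%. These shares are background for a choice that was made on the BCR-ABL1 values, and nothing is read from them. Between SFPQ-ABL1 and MSCV the lines overlapped for all 6 genes.

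**Figure D1:**
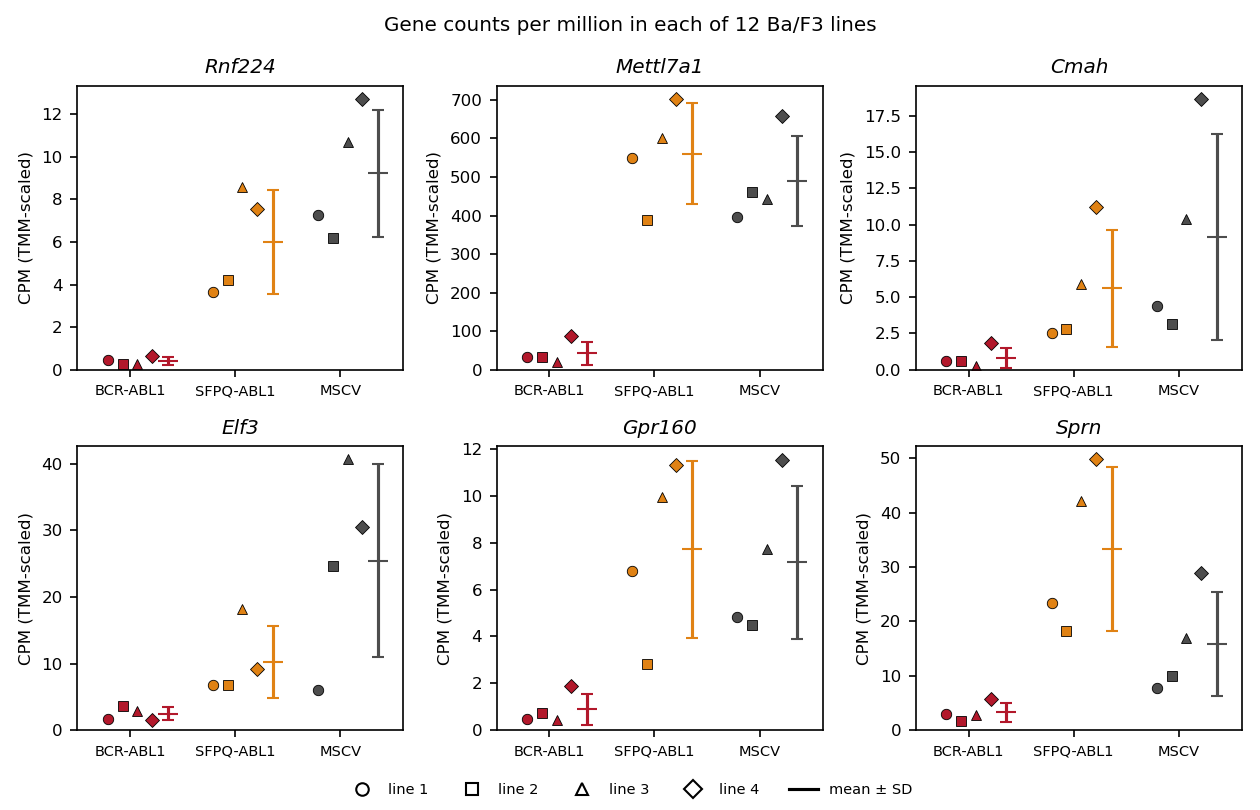
Levels of the 6 genes in each of the 4 lines of a group, as TMM-scaled CPM on a linear axis from 0, with BCR-ABL1 to the left, SFPQ-ABL1 in the middle and MSCV to the right. Each symbol is a line, and the bar beside them is the mean ± SD. Every BCR-ABL1 point lies below every other point of the same gene, and the SFPQ-ABL1 and MSCV points overlap for each gene.

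The enzyme genes stood far apart in level. Mettl7a1 (ENSMUSG00000054619, chromosome 15, 100304140 to 100328662, plus strand, mm10) had 33.3, 32.4, 19.9 and 86.5 CPM in BCR-ABL1 lines 1 to 4, 549, 388, 602 and 702 in the SFPQ-ABL1 lines, and 397, 460, 443 and 659 in the MSCV lines. It was the most abundant of the 6 genes, with the lowest MSCV line at more than 4 times the highest BCR-ABL1 line. Its mean was 43.0 ± 29.6 CPM (SD, n = 4 lines) with BCR-ABL1 and 490 ± 116 with MSCV, an 11.4-fold lower level (log2 fold change -3.51). With SFPQ-ABL1 it was 560 ± 131 CPM, and the difference from MSCV was not called (log2 fold change 0.19 ± 0.36 SE, 95% interval -0.57 to 0.96, adjusted p = 0.814). Mettl7a1 has close paralogs, Mettl7a2 and Mettl7a3, with which reads can be shared, so its values are uncertain to that extent.

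Cmah (ENSMUSG00000016756, chromosome 13, 24327404 to 24477377, plus strand) had 0.593, 0.603, 0.243 and 1.81 CPM in BCR-ABL1 lines 1 to 4, 2.55, 2.81, 5.90 and 11.2 in the SFPQ-ABL1 lines, and 4.39, 3.15, 10.4 and 18.6 in the MSCV lines. The SFPQ-ABL1 and MSCV lines were spread widely, with line 4 highest in all 3 groups. The mean was 0.813 ± 0.687 CPM with BCR-ABL1 against 9.14 ± 7.07 with MSCV, an 11.3-fold lower level (log2 fold change -3.49). With SFPQ-ABL1 it was 5.62 ± 4.03 CPM, a difference from MSCV that the test did not call and that this spread left imprecise (log2 fold change -0.70 ± 0.64 SE, 95% interval -2.09 to 0.69, adjusted p = 0.595).

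Elf3 (ENSMUSG00000003051, chromosome 1, 135253575 to 135258568, minus strand) had 1.73, 3.65, 2.87 and 1.503 CPM in BCR-ABL1 lines 1 to 4, 6.71, 6.74, 18.1 and 9.14 in the SFPQ-ABL1 lines, and 6.03, 24.7, 40.7 and 30.5 in the MSCV lines. MSCV line 1 lay apart from the other MSCV lines and below all SFPQ-ABL1 lines. The mean was 2.44 ± 1.004 CPM with BCR-ABL1 against 25.5 ± 14.6 with MSCV (10.4-fold lower, log2 fold change -3.38). SFPQ-ABL1 lines averaged 10.2 ± 5.42 CPM, and the difference from MSCV was not called (log2 fold change -1.32 ± 0.49 SE, 95% interval -2.38 to -0.27, adjusted p = 0.171). Without MSCV line 1 it passed the test (log2 fold change -1.64, adjusted p = 0.0481), so for Elf3 the absence of a call with SFPQ-ABL1 rested on that line.

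Rnf224 (ENSMUSG00000089953, chromosome 2, 25234476 to 25236787, minus strand) had 0.472, 0.247, 0.273 and 0.635 CPM in BCR-ABL1 lines 1 to 4, 3.67, 4.21, 8.60 and 7.56 in the SFPQ-ABL1 lines, and 7.29, 6.21, 10.7 and 12.7 in the MSCV lines. It had the largest fold of the 6 genes, and every BCR-ABL1 line was under 1 CPM. The mean was 0.407 ± 0.182 CPM with BCR-ABL1 against 9.22 ± 3.005 with MSCV, 22.6-fold lower (log2 fold change -4.50). At 6.01 ± 2.44 CPM with SFPQ-ABL1, the difference from MSCV was not called (log2 fold change -0.62 ± 0.34 SE, 95% interval -1.34 to 0.11, adjusted p = 0.348).

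The membrane protein genes Gpr160 and Sprn had SFPQ-ABL1 means at or above those of MSCV. Gpr160 (ENSMUSG00000037661, chromosome 3, 30855950 to 30897192, plus strand) had 0.458, 0.740, 0.440 and 1.87 CPM in BCR-ABL1 lines 1 to 4, 6.78, 2.83, 9.98 and 11.3 in the SFPQ-ABL1 lines, and 4.85, 4.49, 7.75 and 11.6 in the MSCV lines. The highest BCR-ABL1 line, line 4, came closest to the other groups, where SFPQ-ABL1 line 2 was the lowest. Means were 0.878 ± 0.678 CPM with BCR-ABL1, 7.73 ± 3.78 with SFPQ-ABL1 and 7.16 ± 3.27 with MSCV. BCR-ABL1 was 8.17-fold below MSCV (log2 fold change -3.03), and SFPQ-ABL1 was not called against MSCV (log2 fold change 0.11 ± 0.49 SE, 95% interval -0.94 to 1.16, adjusted p = 0.932).

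Sprn (ENSMUSG00000045733, chromosome 7, 140150628 to 140154877, minus strand) had 3.01, 1.58, 2.70 and 5.75 CPM in BCR-ABL1 lines 1 to 4, 23.3, 18.2, 42.1 and 49.8 in the SFPQ-ABL1 lines, and 7.67, 9.92, 17.0 and 29.0 in the MSCV lines. It was the only 1 of the 6 genes with every SFPQ-ABL1 line above the MSCV mean. That mean was 15.9 ± 9.58 CPM, against 3.26 ± 1.77 with BCR-ABL1 (4.88-fold lower, log2 fold change -2.29) and 33.4 ± 15.05 with SFPQ-ABL1. The SFPQ-ABL1 difference from MSCV was 2.10-fold and was not called (log2 fold change 1.07 ± 0.46 SE, 95% interval 0.09 to 2.06, adjusted p = 0.231).

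In all, 0 of the 6 genes were called between SFPQ-ABL1 and MSCV by edgeR, where 1.79% of all genes tested were called, and 2 of the 6, Elf3 and Sprn, had an unadjusted p under 0.05, as 18.6% of all genes did. DESeq2 and limma-voom also called 0 of the 6, and exceptions under other alternatives are given below with the processing. The genes were named as lost with BCR-ABL1 only with these values known, and the MSCV lines entered both the choice and this test. The 0 calls may therefore follow in part from the choice, and nothing is read from them. The intervals for Cmah and Elf3 reach log2 fold changes of -2.09 and -2.38, so falls of up to 4-fold and more with SFPQ-ABL1 lie within them. Directly between the fusions, where neither group had IL-3, SFPQ-ABL1 lines exceeded BCR-ABL1 lines 14.8-fold for Rnf224, 13.0-fold for Mettl7a1, 10.3-fold for Sprn, 8.81-fold for Gpr160, 6.91-fold for Cmah and 4.18-fold for Elf3. These folds share the BCR-ABL1 lines with the choice.

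**Figure D2:**
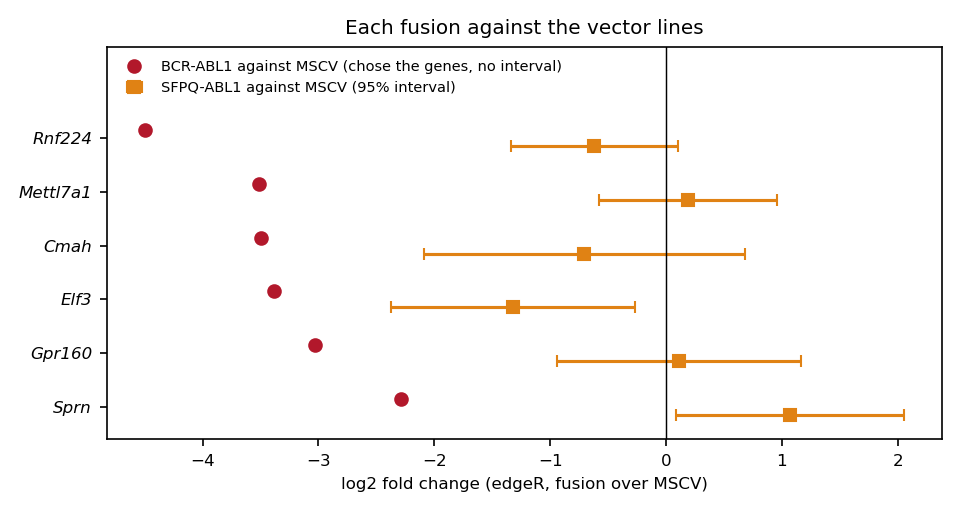
Log2 fold changes of the 6 genes with BCR-ABL1 and with SFPQ-ABL1, each against MSCV, with 95% intervals for SFPQ-ABL1, which was tested though not independently of the choice. The BCR-ABL1 values run from -4.50 to -2.29, and the SFPQ-ABL1 values run from -1.32 for Elf3 to 1.07 for Sprn.

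Levels of different genes were set on a rough common scale, per length of all annotated exons of the gene. This length may exceed that of the RNA present, as for Cmah, whose first 14 exons held 7 exon counts in all. With MSCV, Mettl7a1 averaged 189 CPM per kb of exon, Elf3 11.5, Sprn 4.71, Rnf224 3.99, Gpr160 1.69 and Cmah 0.857. With SFPQ-ABL1 the values were 216 for Mettl7a1, 9.89 for Sprn, 4.59 for Elf3, 2.599 for Rnf224, 1.83 for Gpr160 and 0.527 for Cmah. With BCR-ABL1 only Mettl7a1, at 16.6, and Elf3, at 1.10, averaged above 1 CPM per kb of exon, while Sprn was at 0.966, Gpr160 at 0.208, Rnf224 at 0.176 and Cmah at 0.0763. No gene was at a count of 0 in any library, and the lowest count was 16, for Cmah in BCR-ABL1 line 3. In these bulk samples fewer cells that express a gene and less RNA of it per cell cannot be told apart.

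The BCR-ABL1 lines were not alike. Line 4 was the highest BCR-ABL1 line for 5 of the 6 genes, at 1.92 times the mean of lines 1 to 3 for Rnf224, 2.37 for Sprn, 3.03 for Mettl7a1, 3.43 for Gpr160 and 3.78 for Cmah. For Elf3 it was the lowest, at 0.547 times that mean. Besides these genes 138 others, or 0.837% of all genes tested with the 6 included, were called lower by 4-fold or more with BCR-ABL1. Among the 138, line 4 was the highest of the 4 in 62 (44.9%), and the median ratio was 1.22. Leaving line 4 out put Mettl7a1 17.2-fold below MSCV, Gpr160 13.1-fold and Cmah 18.9-fold, and leaving out MSCV line 4 put Cmah 7.39-fold below. Between the fusions the log2 fold change without BCR-ABL1 line 4 was 4.30 for Mettl7a1, 3.82 for Gpr160 and 3.54 for Cmah, and without SFPQ-ABL1 line 4 it was 2.21 for Cmah. BCR-ABL1 line 4 differed from lines 1 to 3 on exons reporting the fusions, and the part of that difference in these levels was not tested.

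Each gene was also read exon by exon from the separate exon table, whose total was 18.0% of the gene total, and overlapping annotated exons were taken as 1. Elf3 and Mettl7a1 alone had more than 1 exon with at least 50 MSCV counts. Exons kept by their MSCV counts lean to being high there, so their folds are a description. The 5 such exons of Elf3 were 8.65- to 14.9-fold lower with BCR-ABL1 than with MSCV, and their SFPQ-ABL1 levels were 0.268 to 0.575 times those of MSCV. In Mettl7a1 the exons from 100304761 to 100305344 and from 100312994 to 100314355 were 16.2- and 15.4-fold lower with BCR-ABL1. An annotated exon upstream of these, from 100304140 to 100304262, had 1 count over the BCR-ABL1 lines, 76 over the SFPQ-ABL1 lines and 47 over the MSCV lines, where the exon at 100304761 had 199, 3878 and 3340. The single long exon of Rnf224 had 8 counts with BCR-ABL1, 105 with SFPQ-ABL1 and 145 with MSCV. The last exon of Gpr160 had 10, 104 and 95 counts, and the last exon of Sprn had 57, 562 and 301, in the same order of groups. The exon before the last of Gpr160 had 4 counts with BCR-ABL1, 3 with SFPQ-ABL1 and 1 with MSCV.

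The exon counts of Cmah lay at its 3′ end. The last exon held 82.9% of them, as it held 76.8% for Gpr160 and 94.9% for Sprn. These exons are long, at 7607 of 10660 exon bases for Cmah, 1483 of 4227 for Gpr160 and 3045 of 3374 for Sprn. The annotation of Cmah gives 20 exons. The first 14, from 24327404 to 24439674, held 7 counts over all 12 libraries, all of them in MSCV, or 2.91 counts per kb. The last 6, from 24456879 to 24477377, held 326 counts, or 39.5 per kb, with 20 in BCR-ABL1 lines, 104 in SFPQ-ABL1 lines and 202 in MSCV lines. The last exon alone held 276 of them, or 36.3 per kb, and was 9.92-fold lower with BCR-ABL1 than with MSCV. The 5 exons before it held 50, or 77.4 per kb. The place of this split was chosen after the counts were seen. All 20 exons held 333 counts, where the gene table held 221 counts for Cmah in BCR-ABL1 lines, 1577 in SFPQ-ABL1 lines and 2583 in MSCV lines. Which reads the exon table leaves out is not described, so where the other reads of Cmah lay was not determined.

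**Figure D3:**
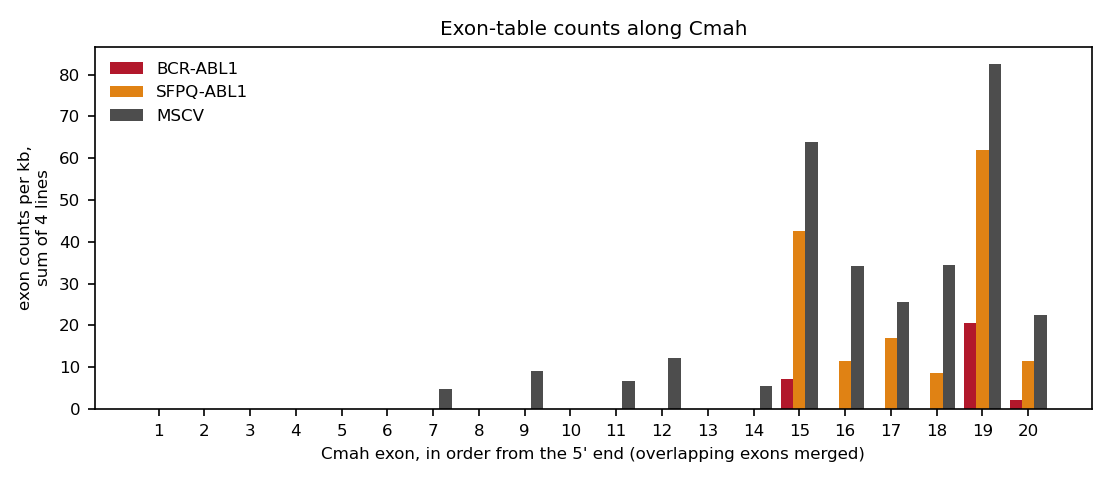
Exon counts per kb on the 20 exons of Cmah from the 5′ end, summed over the 4 lines of BCR-ABL1, SFPQ-ABL1 and MSCV. The first 14 exons hold 7 counts in all and the last 6 hold 326.

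The genes lie on 6 different chromosomes, so their neighbours were compared to see how far the low level extended along each. Of the nearest 2 protein-coding genes on each side, 17 of 24 were measured. With BCR-ABL1, 10 of the 17 were lower than with MSCV and 3 were higher, against 16.3% lower and 15.8% higher of all genes tested, and their median log2 fold change was -0.73 against -0.01 for all genes. With SFPQ-ABL1, 1 of the 17 was lower and 0 higher, against 0.977% and 0.814% of all genes tested. It was the lysosomal Arf-like gene Arl8a (log2 fold change -0.40, adjusted p = 0.0392), which was not called without MSCV line 2, 3 or 4 or SFPQ-ABL1 line 1 or 4. Between the fusions 10 were higher and 1 was lower with SFPQ-ABL1, against 13.2% and 12.8% of all genes tested. The neighbours are fixed by position, but they may share reads or regulation with the chosen genes, so they are not independent of the choice.

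At the Rnf224 locus all 4 neighbours fell. Slc34a3, a sodium-dependent phosphate transporter gene that starts 112 bases past the end of Rnf224 on the same strand, had 0.647, 0.301, 0.501 and 1.19 CPM in BCR-ABL1 lines 1 to 4, 7.27, 2.68, 14.9 and 11.8 in the SFPQ-ABL1 lines, and 12.8, 10.4, 21.3 and 22.6 in the MSCV lines. Its BCR-ABL1 lines stood apart from both other groups, as those of Rnf224 did. It fell 25.5-fold with BCR-ABL1 against MSCV (log2 fold change -4.67 ± 0.55 SE, adjusted p = 7.72e-05). Cysrt1, 2031 bases away, fell 22.1-fold to 0.0677 ± 0.0250 CPM, against 1.54 ± 0.619 (adjusted p = 4.24e-05). Rnf208, another RING finger gene, fell 15.4-fold to 0.117 ± 0.0248 CPM, against 1.81 ± 0.532 (adjusted p = 4.97e-05). Cysrt1 and Rnf208 overlap on opposite strands from 25242255 to 25242452. The use of strand in counting is not given in the sources used here, so reads on that shared stretch cannot be told apart. The tubulin gene Tubb4b, 9774 bases away, fell by much less, to 360 ± 56.5 CPM against 597 ± 66.3 (1.66-fold, adjusted p = 0.00110). With SFPQ-ABL1 against MSCV the log2 fold changes were -0.87 for Slc34a3 (adjusted p = 0.333), -0.95 for Cysrt1 (0.195) and -1.41 for Rnf208 (0.0678), and none was called. SFPQ-ABL1 exceeded BCR-ABL1 13.9-fold for Slc34a3 (adjusted p = 0.000410), 11.4-fold for Cysrt1 (0.000325) and 5.78-fold for Rnf208 (0.00120).

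At the Sprn locus the olfactory receptor genes on one side fell and the overlapping gene on the other was not called. Olfr522, 5122 bases from Sprn, had 0.809, 0.384, 0.592 and 1.13 CPM in BCR-ABL1 lines 1 to 4, 4.29, 3.95, 8.32 and 10.4 in the SFPQ-ABL1 lines, and 1.31, 1.45, 2.70 and 5.69 in the MSCV lines. The order of the groups was that of Sprn, with SFPQ-ABL1 highest. Olfr522 was 3.82-fold lower with BCR-ABL1 than with MSCV (adjusted p = 0.0107) and 9.22-fold higher with SFPQ-ABL1 than with BCR-ABL1 (adjusted p = 0.000988), and SFPQ-ABL1 was not called against MSCV (log2 fold change 1.27, adjusted p = 0.177). Olfr523, farther out, had 3 counts over the BCR-ABL1 lines, 73 over the SFPQ-ABL1 lines and 45 over the MSCV lines, and was called lower with BCR-ABL1 than with MSCV (adjusted p = 0.0121). Mtg1, a mitochondrial ribosome GTPase gene that overlaps Sprn by 159 bases on the opposite strand, was at 24.3 ± 3.04 CPM with BCR-ABL1 and 21.7 ± 2.32 with MSCV (adjusted p = 0.265). Beyond it Paox, a polyamine oxidase gene, fell 1.62-fold with BCR-ABL1 (adjusted p = 0.00305).

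The paralogs beside Mettl7a1 were scarce. Mettl7a3 was at 0.0295 ± 0.0338 CPM with BCR-ABL1 and 0.136 ± 0.0317 with MSCV (adjusted p = 0.0168), and Mettl7a2 at 0.0558 ± 0.0630 and 0.679 ± 0.176 (adjusted p = 0.000603). Both followed Mettl7a1, and reads of the abundant gene counted for its paralogs cannot be told from their own. Atf1, a transcription factor gene of the CREB family on the other side, fell 1.71-fold with BCR-ABL1 (adjusted p = 0.00355). At Elf3 the antisense gene Gm26642, which spans the whole of Elf3, was at 0.298 ± 0.103 CPM with BCR-ABL1 and 0.758 ± 0.149 with MSCV (adjusted p = 0.00306), with the same limit on strand. The aminopeptidase gene Rnpep fell 1.85-fold with BCR-ABL1 (adjusted p = 0.000660), while the mitochondrial import gene Timm17a and Arl8a rose 1.29- and 1.23-fold (adjusted p = 0.0359 and 0.0188). At Cmah only Ripor2 was measured, at 164 ± 27.6 CPM with BCR-ABL1 and 185 ± 17.8 with MSCV (adjusted p = 0.330). At Gpr160 the Polycomb gene Phc3, 2179 bases away, was at 61.4 ± 9.60 CPM with BCR-ABL1 and 61.4 ± 17.3 with MSCV, the translocation gene Sec62 was not called (adjusted p = 0.0836), and the kinase gene Prkci rose 1.42-fold (adjusted p = 0.0107). Tmprss12, Methig1, Carmil1, Scgn, Armh2, Gpr37l1 and Samd7 had too few counts to be tested.

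**Figure D4:**
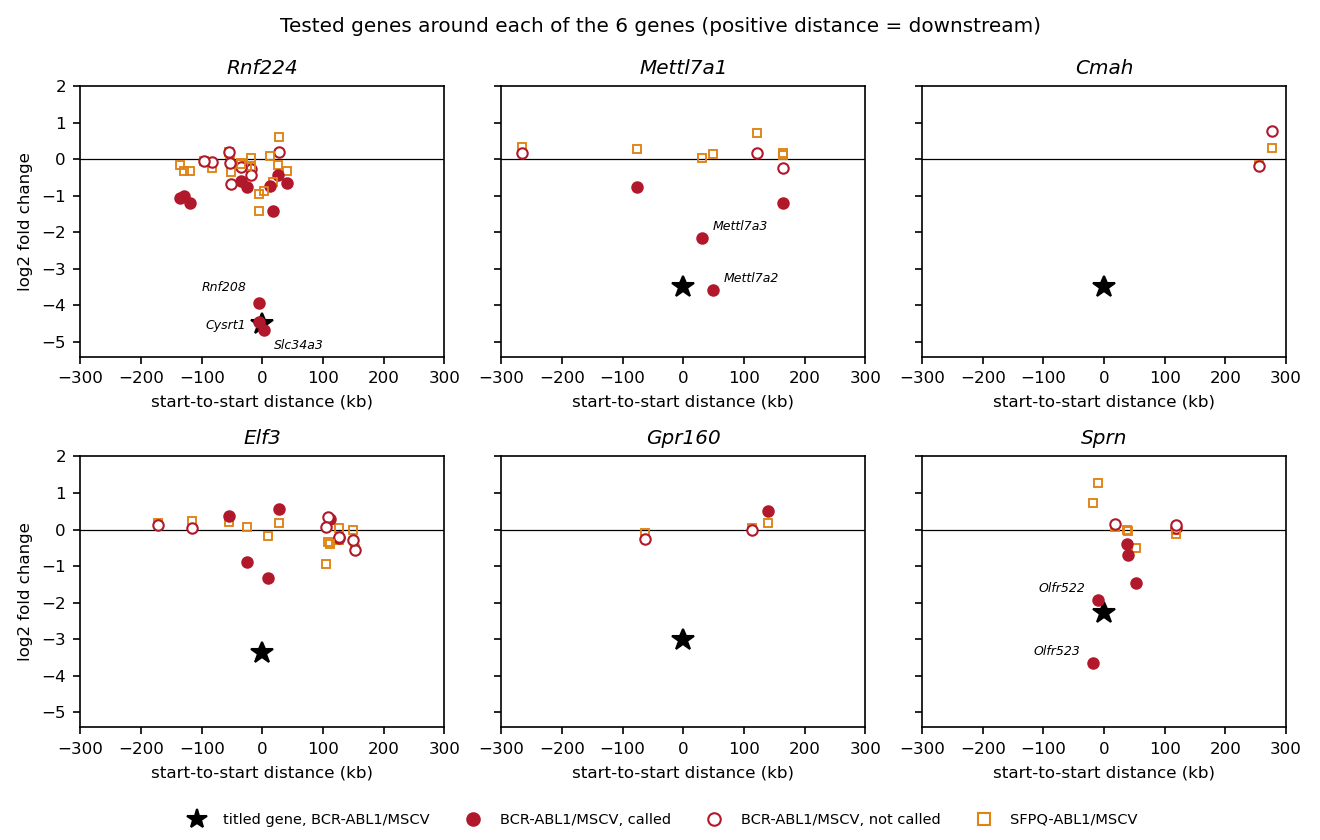
Log2 fold changes against MSCV of all tested genes with a gap of at most 150 kb to each of the 6 genes, by the distance between start sites in kb (positive is downstream), with filled circles for BCR-ABL1 values that were called, open circles for those that were not, squares for SFPQ-ABL1 and a star for the titled gene itself. Near Rnf224 the genes Slc34a3, Cysrt1 and Rnf208 lie beside the star at -4.67, -4.47 and -3.94, and around Cmah and Gpr160 no neighbour comes near the star.

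Promoter windows of the 6 genes, 250 bases before to 50 after the annotated start, were taken from RefSeq (GRCm38.p6) to see whether genes that were low together hold the same short motifs. The windows of the 4 genes with the largest group of low neighbours (Rnf224), the highest SFPQ-ABL1 level relative to MSCV (Sprn), the highest RNA level (Mettl7a1) and the transcription factor (Elf3) are shown 5′ to 3′ along the gene. Capitals mark matches, on either strand, to the GATA motif AGATAA, the SP1 motif GGGCGG or the NF-Y motif CCAAT.
Rnf224 (chr2:25236738-25237037, minus strand): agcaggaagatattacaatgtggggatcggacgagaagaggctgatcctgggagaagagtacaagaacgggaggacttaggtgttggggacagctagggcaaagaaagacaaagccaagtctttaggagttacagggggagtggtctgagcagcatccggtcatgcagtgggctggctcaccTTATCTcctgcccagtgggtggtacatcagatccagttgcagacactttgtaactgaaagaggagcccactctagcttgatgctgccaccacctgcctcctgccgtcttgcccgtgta
Sprn (chr7:140154610-140154909, minus strand): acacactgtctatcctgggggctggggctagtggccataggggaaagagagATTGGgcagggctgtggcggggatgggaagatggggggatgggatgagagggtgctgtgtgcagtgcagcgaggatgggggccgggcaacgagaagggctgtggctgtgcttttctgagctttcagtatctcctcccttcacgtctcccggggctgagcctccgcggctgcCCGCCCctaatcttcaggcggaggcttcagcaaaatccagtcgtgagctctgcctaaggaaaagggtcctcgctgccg
Mettl7a1 (chr15:100304567-100304866, plus strand): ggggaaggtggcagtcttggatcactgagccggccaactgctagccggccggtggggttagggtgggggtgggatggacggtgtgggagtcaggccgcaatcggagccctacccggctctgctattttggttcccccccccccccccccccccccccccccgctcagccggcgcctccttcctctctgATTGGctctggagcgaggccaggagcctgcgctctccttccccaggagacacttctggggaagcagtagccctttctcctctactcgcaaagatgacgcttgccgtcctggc
Elf3 (chr1:135258423-135258722, minus strand): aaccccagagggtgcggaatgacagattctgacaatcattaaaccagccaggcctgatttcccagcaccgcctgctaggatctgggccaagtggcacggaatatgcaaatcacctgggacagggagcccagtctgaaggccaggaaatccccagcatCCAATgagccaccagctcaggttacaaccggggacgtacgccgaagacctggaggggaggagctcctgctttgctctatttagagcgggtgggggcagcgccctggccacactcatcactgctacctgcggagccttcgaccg

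No motif was shared by all 6 genes apart from the ETS core GGAA, which 96.0% of the 32817 windows in the table hold. The windows of Sprn, Mettl7a1 and Elf3 each held 1 CCAAT, as 37.4% of all windows do, and the window of Rnf224 held 1 AGATAA, as 11.2% do. A window of Cmah also held 1 CCAAT and 1 AGATAA. The RUNX motif TGTGGT (16.8% of all windows) was in the window of Gpr160 only. Sprn held 1 GGGCGG and Gpr160, whose window is not shown, held 5, against 35.6% of all windows with at least 1. The STAT motif TTCNNNGAA (8.29% of all windows), the ETS motif CCGGAA (14.9%), the E-box CACGTG (7.15%), the AP-1 motif TGANTCA (7.81%), the CRE motif TGACGTCA (1.79%), the FOXO motif TGTTTAC (3.65%), TATAAA (13.6%) and the C/EBP motif TTGCNNCAA (2.08%) were in none of the windows of the 6 genes. Their GC content ran from 47.3% for Cmah to 67% for Mettl7a1, with a median of 52.7% over all windows. Cmah has a pair of windows in the table, neither of which is shown because the exon table had almost no counts on its first exons.

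Genes of the pathways around each member were counted from lists of their families and partners, and in these lists falls and rises were mixed. Of all genes tested, 32.1% were called between BCR-ABL1 and MSCV. In the sialic acid pathway, which makes, activates, transfers and removes the sugar that the Cmah enzyme modifies, 3 of 22 measured genes rose and 6 fell with BCR-ABL1 (median log2 fold change 0.01). The sialyltransferase gene St3gal2 rose 5.26-fold to 369 ± 73.8 CPM, against 70.1 ± 18.0 with MSCV (adjusted p = 3.46e-05). Renbp, which encodes an epimerase of N-acetylglucosamine, fell 1.70-fold (adjusted p = 4.44e-05), the sialic acid lyase gene Npl 2.27-fold (adjusted p = 0.000787) and the esterase gene Siae 1.80-fold (adjusted p = 0.00104). Of 6 measured sialic acid receptor genes, Cd33 rose to 0.611 ± 0.157 CPM, against 0.0620 ± 0.0523 with MSCV (adjusted p = 0.00110). Siglecf fell 4.10-fold (adjusted p = 0.00365) and Siglecg 3.57-fold (adjusted p = 0.0318). With SFPQ-ABL1 against MSCV, Renbp fell 1.37-fold (adjusted p = 0.0205) and Cd33 rose to 0.403 ± 0.201 CPM against 0.0620 ± 0.0523 (adjusted p = 0.0432), and edgeR called no other gene of these lists. In that comparison 1.79% of all genes tested were called. The Cd33 list had 0 calls when any 1 library was left out, apart from MSCV line 2 and SFPQ-ABL1 line 2. The pathway list had 0 calls without MSCV line 3 or SFPQ-ABL1 line 4, and 2 without MSCV line 1 or SFPQ-ABL1 line 2.

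Among 15 measured ETS genes other than Elf3, 4 rose and 4 fell with BCR-ABL1 (median log2 fold change -0.00). Ets2 rose 2.02-fold (adjusted p = 0.000146), Elk1 1.46-fold (adjusted p = 0.00115) and Etv5 7.70-fold to 48.7 ± 3.76 CPM, against 6.31 ± 4.89 with MSCV (adjusted p = 0.00703). Elf4 fell 1.41-fold to 135 ± 4.84 CPM against 190 ± 27.3 (adjusted p = 0.00250). Against these 8 calls, the list had 4 when BCR-ABL1 line 4 or either of MSCV lines 3 and 4 was dropped, and 5 when BCR-ABL1 line 3 or MSCV line 2 was. Of 23 methyltransferase-like genes 9 rose and 5 fell (median 0.13). The falls included Mettl7a2 and Mettl7a3, the paralogs that may hold reads of Mettl7a1, so this count is not independent of the choice. Mettl22 rose 1.85-fold (adjusted p = 0.000156) and the tRNA methyltransferase gene Mettl1 2.62-fold (adjusted p = 0.000227), while Mettl17 fell 1.39-fold (adjusted p = 0.00113). Of 16 lipid droplet genes 3 rose and 6 fell (median 0.02). Hsd17b11, which encodes a droplet dehydrogenase, fell 2.51-fold to 22.0 ± 2.30 CPM against 55.4 ± 5.17 (adjusted p = 1.56e-05), the lipase genes Lipe and Pnpla2 fell 1.65- and 1.48-fold (adjusted p = 0.00102 and 0.00125), and Abhd5, the lipase coactivator, rose 1.38-fold (adjusted p = 0.00201).

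In the list of the prion family and its partners the 4 measured genes were all partners, namely Rpsa, Lrp1, Stip1 and Adam10. Of these, 0 were called with BCR-ABL1 by edgeR or limma-voom, and 2 had an unadjusted p under 0.05 (42.9% of all genes tested). DESeq2 called 1, and edgeR called 1 without MSCV line 4 or SFPQ-ABL1 line 2. Of 5 small RING finger genes 1 fell, Rnf208, and 2 fell without BCR-ABL1 line 1 or SFPQ-ABL1 line 1. Of 17 leukocyte and orphan G protein-coupled receptor genes 5 rose and 3 fell (median 0.18). The oxysterol receptor gene Gpr183 fell 6.24-fold to 9.38 ± 8.35 CPM against 58.6 ± 11.4 (adjusted p = 0.000654) and Gpr84 rose 2.97-fold to 1.27 ± 0.703 CPM against 0.426 ± 0.0858 (adjusted p = 0.00594). Gpr141 was also called higher, at 10.5 ± 17.0 CPM, where the SD exceeded the mean, against 0.0839 ± 0.159 with MSCV (adjusted p = 0.00199). Gpr65 was called lower, at 0.0102 ± 0.0129 CPM against 0.396 ± 0.406 (adjusted p = 0.0129). With SFPQ-ABL1 against MSCV, 1.79% of all genes tested were called by edgeR and 18.6% had an unadjusted p under 0.05. In this comparison edgeR called 0 genes of the ETS, methyltransferase-like, lipid droplet, prion, RING finger and receptor lists, and nothing is read from this. In that order of lists, 3, 1, 4, 3, 1 and 1 genes had an unadjusted p under 0.05. DESeq2 called 1 of each of the first 5 of these lists and 0 receptors, and limma-voom called 1 RING finger gene and 0 of the others. Leaving out MSCV line 1 gave 1 call each in the ETS, methyltransferase-like and lipid droplet lists, and leaving out SFPQ-ABL1 line 3 gave 1 each in the lipid droplet and RING finger lists. Directly between the fusions, where 26% of all genes were called, SFPQ-ABL1 was higher than BCR-ABL1 for 5 and lower for 2 sialic acid pathway genes, higher for 2 and lower for 0 sialic acid receptor genes, and higher for 1 and lower for 2 ETS genes. It was higher for 4 methyltransferase-like genes (Mettl7a2 and Mettl7a3 among them) and lower for 8, and higher for 5 and lower for 4 lipid droplet genes. In the same order the counts were 1 and 2 prion partner genes, 1 and 0 RING finger genes, and 2 and 5 receptor genes. The lipid droplet calls fell to 5 without BCR-ABL1 line 3 or SFPQ-ABL1 line 3, and the prion calls to 1 without either of these or SFPQ-ABL1 line 1, while the RING finger calls numbered 2 without SFPQ-ABL1 line 1 or MSCV line 2.

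Elf3 is known from epithelial cells and Sprn from brain, so markers of these tissues were read beside them. With BCR-ABL1 against MSCV, 16.3% of all genes tested were called lower and 15.8% higher, which is the background for each list below. Of 20 epithelial markers Epcam and Cldn3 were at 0 in all libraries and Cdh1, Krt18 and Krt19 at or under 0.0179 CPM in every group. Rab25 was at 3.37 to 5.66 CPM in the group means, and 3 of the 8 tested markers fell with BCR-ABL1 against MSCV, namely Spint1 4.11-fold (adjusted p = 0.000277), Tjp3 1.84-fold (0.000919) and Ap1m2 1.54-fold (0.0121). The summed level of the list ran from 28.9 to 37.8 CPM in the BCR-ABL1 lines, from 31.7 to 47.6 in the SFPQ-ABL1 lines and from 43.5 to 61.9 in the MSCV lines. Most of it was the junction gene Tjp3, at 24.4 ± 3.48, 33.5 ± 4.80 and 44.9 ± 8.13 CPM with BCR-ABL1, SFPQ-ABL1 and MSCV. Of 13 neuronal and glial markers Syt1, Nefl, Olig1 and Olig2 were at 0. That list summed to 58.8 to 78.1 CPM in the BCR-ABL1 lines, 61.2 to 76.0 in the SFPQ-ABL1 lines and 62.9 to 88.7 in the MSCV lines, and Mbp made up most of it. None of its 4 tested members was called. Of 6 tested granulocyte and monocyte markers Itgam rose 5.95-fold and Prtn3 and Lyz2 fell 4.41- and 2.16-fold with BCR-ABL1 (adjusted p = 0.0162, 0.00977 and 0.00327), with sums of 45.2 to 107 CPM in the BCR-ABL1 lines, 98.6 to 386 in the SFPQ-ABL1 lines and 96.5 to 451 in the MSCV lines. Of 6 erythroid markers Klf1 and Epor fell 2.65- and 2.04-fold (adjusted p = 0.00427 and 0.00197), with sums of 98.6 to 488 CPM in the BCR-ABL1 lines, 166 to 1102 in the SFPQ-ABL1 lines and 301 to 976 in the MSCV lines. Both tested T and NK cell markers, Cd3g and Cd3d, fell with BCR-ABL1 (adjusted p = 0.00235 and 0.0177), and that list summed to 0.471 to 2.66 CPM in the BCR-ABL1 lines, 2.42 to 4.25 in the SFPQ-ABL1 lines and 3.13 to 13.7 in the MSCV lines, and fibroblast markers stayed at or under 0.961 CPM in every library. The part of these markers in the levels of the 6 genes was not tested.

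The genes whose pattern over the 12 libraries was most like that of the 6 were found by Pearson's r of log2 CPM. The libraries share their groups and the 6 genes were chosen for a group pattern, so r is a description. The mean profile of the 6 genes was most like Arhgef18, a guanine nucleotide exchange factor gene (r = 0.988), Tbc1d17, a Rab GTPase-activating gene (0.986), Tspo, a mitochondrial outer membrane gene (0.982), G430095P16Rik (0.981), Mrtfa, a coactivator of SRF (0.981), the noncoding gene BC049987 (0.978), Plac8 (0.977) and the acetylcholine receptor gene Chrnb1 (0.976). Plac8 showed the pattern at high level, at 211 CPM with BCR-ABL1, 1631 with SFPQ-ABL1 and 1549 with MSCV. Singly, Rnf224 was nearest to Tbc1d17 (0.986) and Tspo (0.984), and Mettl7a1 to Plac8 (0.985), Zbtb1 (0.983) and Ap5z1 (0.980). Cmah was nearest to Pramef8 (0.978), Slc36a1 (0.976) and Syne1 (0.968), and the genes most like Elf3 included Cep19 (0.971) and the kinase gene Tyk2 (0.965). Gpr160 was nearest to the transferrin receptor gene Tfr2 (0.977), Zfyve26 (0.973) and Pga5 (0.971), and Sprn to its neighbour Olfr522 (0.989), 4930524N10Rik (0.961) and Sfxn5 (0.958).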

How the data were processed

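RNA was measured in 12 libraries of Ba/F3 lines, 4 per group. Per the labels' protocols, a PureLink kit gave the RNA of exponentially growing cells. Subread, featureCounts and mm10 are named in the submitters' processing notes, without versions, annotation, use of strand or treatment of multiply matching reads. Gene and exon tables hold raw counts as deposited by the authors, indexed by Ensembl identifiers. Symbols and coordinates came from GENCODE M21, which matched 55144 of 55471 gene identifiers.

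The test was that of edgeR 4.0.16 (R 4.3.3): filterByExpr, TMM factors, and glmQLFit and glmQLFTest (two-sided) on all 12 libraries with group as the term, adjusted over 17197 genes. The p-values are for a difference between group means, judged against the spread between these lines. Exon CPM are exon counts over the gene total of the library, without TMM factors. Intervals are for the log2 fold change between groups, with the spread between lines as the error, and the labels describe no molecular identifiers. Alternatives were DESeq2 1.42.0, limma-voom (limma 3.58.1), other scaling, no filter, the 8 libraries compared, a replicate block and each library left out. The edgeR test was first tested on simulated data.

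The members, the lists and the tests were chosen with earlier results of these data known. Named genes were the 6 members, up to 4 called genes per list with the smallest adjusted p, the tested neighbours, and the 3 (for the mean profile, 8) genes most alike. Gm26642, the markers and the prion partners were named after their values were seen. A few genes that this rule or a marker list names are not reported here.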

Additional observations from a re-analysis of the deposited data

Results flagged for a closer look

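The mean of Sprn lay below that of MSCV with BCR-ABL1 and above it with SFPQ-ABL1. All 4 BCR-ABL1 lines, at 1.58 to 5.75 CPM, lay below the MSCV mean of 15.9, and all 4 SFPQ-ABL1 lines, at 18.2 to 49.8 CPM, lay above it, with a log2 fold change of 1.07 for SFPQ-ABL1 against MSCV and -2.29 for BCR-ABL1 against MSCV. The difference between these directions was not tested, because the BCR-ABL1 values chose the gene. Each of the 6 genes in each of the 3 groups, 18 groups of 4 lines in all, was checked for a line far from the others, and none passed Dixon's 95% critical value.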

How the results depend on the processing

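Between SFPQ-ABL1 and MSCV, where the 6 genes were tested, none was called under the alternatives run, with 2 exceptions. Elf3 was called without MSCV line 1 (-1.64, adjusted p = 0.0481), and Sprn in the fit with the replicate number as a block (1.13, adjusted p = 0.0152). The log2 fold change of Gpr160 with SFPQ-ABL1 against MSCV, never called, ran from -0.13 to 0.44 with a line left out. The labels do not tie same-numbered lines to each other. As a hint from the data, of 12 same-numbered pairs 7 had correlated deviations over 0.1 (r from -0.01 to 0.385), and 9 of 12 libraries matched their own number best.

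With the replicate block 5336 genes were called between the fusions, 6307 with BCR-ABL1 and 726 with SFPQ-ABL1 against MSCV, against 4471, 5522 and 308 without it. For SFPQ-ABL1 against MSCV, DESeq2 called 1131 and the 8 libraries alone 110, and leaving out a line gave 33 (without MSCV line 3) to 467 (without SFPQ-ABL1 line 2). Without normalization factors 64.8% of the calls were higher, against 45.5%, and between the fusions 61.9% against 50.7%.

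Counts in small lists moved as follows, for SFPQ-ABL1 against MSCV unless stated. Sialic acid pathway genes numbered 2 without factors or filter, 3 by DESeq2, 0 in the 8 libraries and 0 to 2 with a line left out, and receptors 0 by limma-voom, 0 in the 8 libraries and 0 to 1 with a line left out. ETS genes numbered 1 without filter, by DESeq2 or with the block, 0 to 1 with a line left out, 5 between the fusions with the block, and 4 to 8 for BCR-ABL1 against MSCV with a line left out. Methyltransferase-like genes numbered 1 by DESeq2 and 0 to 1 with a line left out. Lipid droplet genes numbered 1 by DESeq2, 2 with the block, 0 to 1 with a line left out, and 5 to 9 between the fusions. Genes of the prion list numbered 1 by DESeq2. For BCR-ABL1 against MSCV they numbered 1 by DESeq2, in the 8 libraries or with the block, and 0 to 1 with a line left out. Between the fusions they numbered 1 to 3. RING finger genes numbered 1 without filter, by DESeq2, limma-voom or with the block, 0 to 1 with a line left out, 1 to 2 for BCR-ABL1 against MSCV with a line left out, and between the fusions 2 without factors or by DESeq2 and 1 to 2 with a line left out. Neighbours numbered 0 without factors or in the 8 libraries, 2 by DESeq2 or limma-voom, 4 with the block and 0 to 1 with a line left out. Within 150 kb, an alternative added after seeing the data, 27 genes were called for BCR-ABL1 and 2 for SFPQ-ABL1 against MSCV, and 26 between the fusions. The cause of these moves was not tested. The receptor list gave 0 calls by edgeR for SFPQ-ABL1 against MSCV under every alternative, with 1 at an unadjusted p under 0.05 and 0 by DESeq2. By edgeR on all 12 libraries, 1.79% of all genes tested were called and 18.6% had an unadjusted p under 0.05.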

Other observations

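Lines 3 and 4 were the 2 highest lines of both the SFPQ-ABL1 and the MSCV group for 5 of the 6 genes (Rnf224, Cmah, Elf3, Gpr160 and Sprn), and this held for 12.3% of all genes tested. Line numbers come from the labels, which do not say whether equal numbers share a day or a culture. The pattern was noticed after the values were seen.

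Of the 54 tested genes within 150 kb of a member, a window chosen after the nearest neighbours were seen, 23 were lower and 4 higher with BCR-ABL1 than with MSCV, and 6 were lower by 4-fold or more, against 16.3%, 15.8% and 0.837% of all genes tested. The 6 were Slc34a3, Cysrt1, Rnf208, Mettl7a2, Mettl7a3 and Olfr523. They are not independent, as Cysrt1 and Rnf208 overlap and the Mettl7a1 paralogs may hold its reads. Olfr523 had 3 counts over the BCR-ABL1 lines. Around Rnf224, 12 of 21 were lower and 0 higher by edgeR, around Sprn 5 of 8, around Mettl7a1 4 of 7, and around Elf3 2 of 13 were lower and 3 higher. Around Gpr160, 1 of 3 was higher, and around Cmah 0 of 2 were called.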
